A study of Mus musculus with 18 samples.

Results

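The 10 genes described here encode Polycomb and MLL (mixed lineage leukaemia family) regulators that act on Hox loci: Ezh1, Ezh2, Eed, Suz12, Bmi1, Kmt2a, Wdr5, Kdm6a, Kdm6b and Dot1l. They were chosen by name, as the rows of the deposited count table whose mouse Ensembl identifier maps to 1 of these symbols, and all 10 were found among 50689 features. The study sequenced RNA of satellite cells (resident stem cells of skeletal muscle) in culture, as 9 scKO and 9 control libraries. Mice were of strain C57BL6, and the cells, taken from tibialis anterior, were proliferating on matrigel in growth medium. scKO libraries have the genotype Pax7-CreERT2/+;Hoxa10f/f, in which a Cre driven from Pax7 acts on Hoxa10 alleles flanked by its target sites, and were given 4-hydroxytamoxifen at 1 µM for 2 days. Control libraries are CON (Hoxa10f/f): they carry the same Hoxa10 alleles, and the labels give neither Cre nor drug for them, so genotype, Cre and drug differ together. Whether each library had its own animal or culture is not in the labels, and p-values therefore measure only the spread between these samples, which may be technical.

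Polycomb proteins hold developmental genes silent. Polycomb repressive complex 2 (PRC2) places the methyl mark H3K27me3 on histone H3, and Polycomb repressive complex 1 (PRC1) binds that mark and adds ubiquitin to histone H2A. MLL complexes, the mammalian trithorax proteins, oppose this by placing the mark H3K4me3, and the demethylases Kdm6a and Kdm6b remove the PRC2 mark. The order in which Hox genes are opened and kept silent along the body axis is the classical setting in which both systems were found, and in adult muscle stem cells PRC2 is known for keeping lineage genes silent during proliferation.

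Libraries fell into 2 depth classes. Levels are compared within a class, and fits over all 18 libraries carry the class as covariate. The deep class (over 2,000,000 counts of unique molecular identifiers, UMIs) held 3 scKO libraries (numbers 6, 7 and 9; 5295236 to 5842408 counts) and 2 control libraries (1 and 2; 4346150 and 5986128 counts). The shallow class held 6 scKO libraries (613915 to 968559 counts) and 7 control libraries (420197 to 917166 counts). Within the shallow class scKO 1 and control 7, 8 and 9 stood apart on the first principal component, at 30.5 to 35.3 against -19.7 to -7.2 for the other shallow libraries. Hoxa10 itself had 9.08, 9.39 and 13.6 CPM (counts scaled to a common library total) in deep scKO libraries, against 50.2 and 53.2 CPM in deep control libraries (log2 fold change -2.28, SE 0.17, adjusted p = 3.17e-05 in edgeR). In shallow libraries it had 1 to 3 counts per scKO library and 11 to 36 counts per control library, with no overlap. Counts cover the whole gene, and the labels do not say which part is removed. All 9 satellite cell and myoblast markers had counts in both groups of both classes. Their sum was 3819 to 4789 CPM per library in the deep class and 7153 to 10730 CPM in the shallow class, without overlap. In bulk samples, fewer cells of a type and less RNA per cell cannot be told apart.

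Promoters of 3 PRC2 genes (Ezh2, Ezh1 and Suz12) and of Kmt2a are shown, to set the 2 promoters with a match below beside those of the other catalytic subunit and of the main MLL gene. Ezh2 is a known target of E2F factors, which also act on genes of S phase, so 4 E2F-type motifs (TTTCCCGC, TTTGGCGC, TTTCGCGC and TTTGCCGC, read on both strands) were searched in the 300 bases around each start site. Promoters are from RefSeq (GRCm38.p6), 250 bases before the start site and 50 from it on, written 5′ to 3′ on the strand of the gene, with matches in capitals. Ezh2 lies at chr6:47594981-47595280 on the minus strand, Ezh1 at chr11:101226414-101226713 on the minus strand, Suz12 at chr11:79992856-79993155 on the plus strand and Kmt2a at chr9:44881240-44881539 on the minus strand.
Ezh2: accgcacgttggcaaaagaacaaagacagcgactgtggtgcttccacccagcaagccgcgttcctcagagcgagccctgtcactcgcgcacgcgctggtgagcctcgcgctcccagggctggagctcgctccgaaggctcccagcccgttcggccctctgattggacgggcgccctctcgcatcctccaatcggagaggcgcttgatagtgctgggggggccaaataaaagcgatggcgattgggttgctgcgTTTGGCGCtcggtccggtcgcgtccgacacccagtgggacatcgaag
Ezh1: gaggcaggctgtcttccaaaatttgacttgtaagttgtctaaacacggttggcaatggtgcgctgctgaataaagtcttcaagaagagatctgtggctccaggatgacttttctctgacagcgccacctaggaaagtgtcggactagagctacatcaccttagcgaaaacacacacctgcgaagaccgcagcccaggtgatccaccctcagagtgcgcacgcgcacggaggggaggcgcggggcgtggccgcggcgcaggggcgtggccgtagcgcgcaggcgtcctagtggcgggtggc
Suz12: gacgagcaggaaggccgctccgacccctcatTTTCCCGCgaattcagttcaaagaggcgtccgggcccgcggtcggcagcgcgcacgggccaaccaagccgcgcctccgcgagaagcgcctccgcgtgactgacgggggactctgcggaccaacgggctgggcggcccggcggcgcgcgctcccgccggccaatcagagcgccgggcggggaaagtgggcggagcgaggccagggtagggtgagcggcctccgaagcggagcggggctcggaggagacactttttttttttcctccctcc
Kmt2a: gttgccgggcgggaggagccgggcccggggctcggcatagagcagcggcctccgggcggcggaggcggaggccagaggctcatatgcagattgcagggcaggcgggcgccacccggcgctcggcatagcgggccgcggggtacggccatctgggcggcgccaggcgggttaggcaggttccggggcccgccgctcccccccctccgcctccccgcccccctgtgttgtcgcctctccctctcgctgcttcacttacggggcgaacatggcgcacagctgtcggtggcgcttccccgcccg
Ezh2 held TTTGGCGC, beginning 3 bases past the start base, and Suz12 held TTTCCCGC, beginning 219 bases before it, each on the strand of the gene. A promoter was found for 9 members (not for Kdm6b), and Ezh2 and Suz12 were the 2 of these 9 with a match. The same motifs were in 17 of 50 promoters of the S phase genes listed further on (34%) and in 744 of 32851 promoters overall (2.26%). A match describes the letters only, and no match says only that these letters are not in this window.

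Levels of different members were compared per kb of merged exons (GENCODE M21), as CPM on scaled library totals divided by exon length. Whether the UMIs were counted along the transcript or at its 3′ end is not given in the sources used here, so the order below holds only for levels divided by exon length. In deep control libraries the order of mean levels was Wdr5 (52.0 CPM per kb), Bmi1 (49.6), Suz12 (15.6), Eed (9.18), Kdm6b (8.37), Ezh2 (7.64), Dot1l (4.80), Kmt2a (3.16), Kdm6a (2.66) and Ezh1 (1.84). The ranges of Wdr5 and Bmi1 overlapped, as did those of Eed with Kdm6b, Kdm6b with Ezh2, and Kmt2a with Kdm6a. The other neighbours in this order did not overlap, with 2 libraries each. In shallow control libraries Wdr5 stood alone at the top (56.0 to 90.7 CPM per kb), Bmi1 (mean 15.1) overlapped Suz12 (11.02), and Suz12 lay above Ezh2 (4.04) in all libraries. Below that, Dot1l (3.76), Eed (2.91), Kdm6b (2.67), Kmt2a (2.62), Ezh1 (1.47) and Kdm6a (1.28) each overlapped their neighbours.

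**Figure D1:**
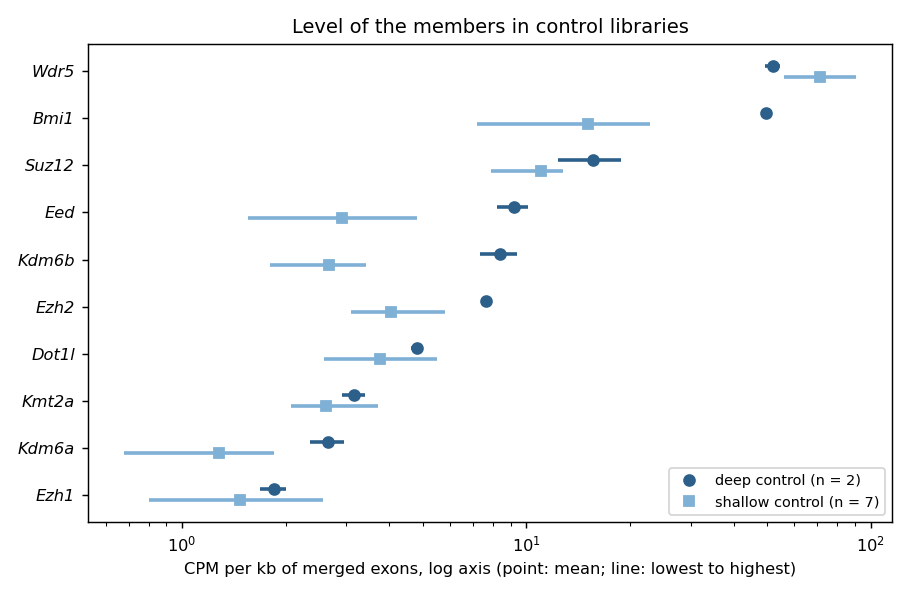
Level of each member in control libraries, in CPM per kb of merged exons on a log axis, for deep (n = 2) and shallow (n = 7) libraries, with the mean as a point and the lowest to highest library as a line. Wdr5 lies highest in both classes, at a mean of 52.0 in deep and 71.6 in shallow libraries, and Bmi1 lies at 49.6 in deep and 15.1 in shallow libraries.

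The members did not shift alike between depth classes. Among controls, the log2 ratio of the mean level in deep over shallow libraries was 1.72 for Bmi1, 1.66 for Eed and 1.65 for Kdm6b, against a median of 0.55 over all genes tested across 18 libraries. For Wdr5 it was -0.46, at percentile 12 of those genes. Levels are therefore compared between groups within a class only.

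Differences between scKO and control were tested over all genes with edgeR's quasi-likelihood test, at a Benjamini-Hochberg adjusted p under 0.05. In deep libraries all 10 members passed the filter on low counts and 1 was called, Ezh2, lower in scKO. The background in that comparison was 14.3% of 13136 genes called in either direction and 7.03% called lower, so 1 of 10 is a share near the background. With all 18 libraries, and depth class entered as covariate, 8 members passed the filter and edgeR called 0, against 0.679% of 7662 genes. Of the 8, Ezh2 and Kmt2a had an unadjusted edgeR p under 0.05, both lower in scKO, which 11.9% of genes had in either direction. DESeq2 called the same 2 genes in this model, where it called 5.09% of all 7662 genes, and limma-voom called 0 members and 1.32% of all genes. In shallow libraries 7 members passed and 0 were called by edgeR, DESeq2 or limma-voom, against 0.0434% of 6906 genes in the edgeR test. There, 1 member, Kmt2a, had an unadjusted edgeR p under 0.05, which 6.15% of genes had. Ezh1 and Eed passed the filter in deep libraries alone, and Kdm6a did not pass it in shallow libraries. The median log2 fold change of the members was -0.13 in deep libraries, -0.12 in shallow libraries and -0.15 over 18 libraries, against 0, -0.02 and -0.01 over all genes tested. For the difference of the scKO effect between deep and shallow libraries, edgeR called 0 of the 8 members and 0% of 7662 genes. None of the 8 had an unadjusted p under 0.05 in that test, which 6.17% of all genes had.

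**Figure D2:**
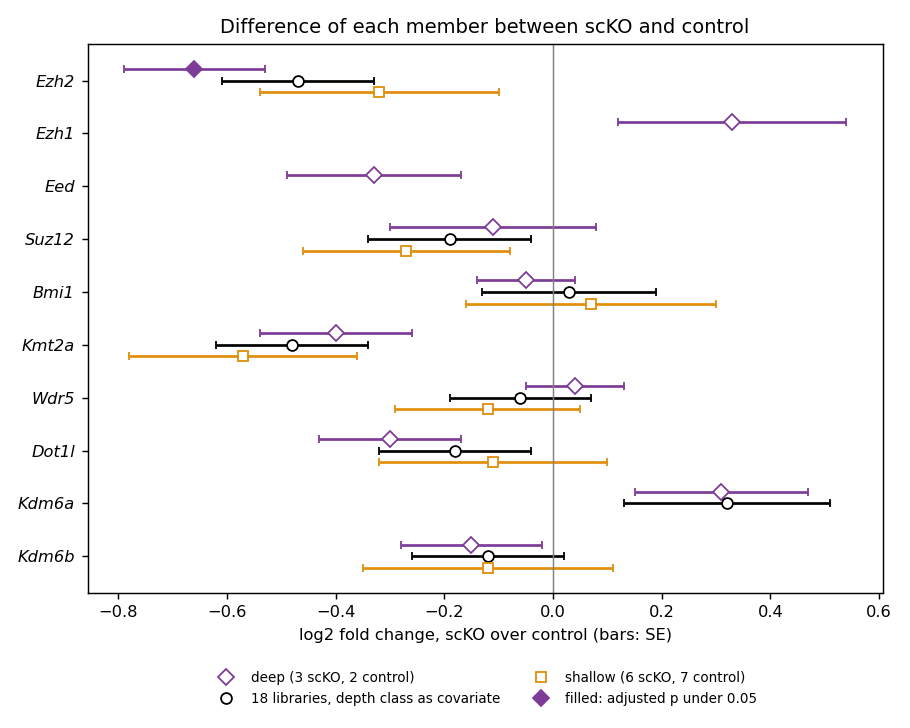
Log2 fold change of each member, scKO over control, with its SE, in deep libraries, over 18 libraries with depth class as covariate, and in shallow libraries. Filled symbols have an edgeR adjusted p under 0.05: Ezh2 in deep libraries, at -0.66, is the 1 such point. No symbol is drawn where the gene did not pass the filter.

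Ezh2 is the catalytic subunit of PRC2 that predominates in dividing cells. It lies at chr6:47530139-47595341 on the minus strand (GRCm38; this build holds for the other gene positions too). In deep libraries the scKO values were 31.98, 29.68 and 35.2 CPM, from 177, 177 and 186 counts, and the control values were 51.2 and 50.8 CPM, from 213 and 313 counts. All 3 scKO libraries lay below both control libraries, and the groups did not overlap. Values lay apart in this way, with scKO lower, for 22.3% of genes tested in deep libraries. As a log2 fold change, scKO over control, this gave -0.66 (SE 0.13, adjusted p = 0.00412 in edgeR). The call held when any 1 of the 5 deep libraries was left out (-0.72 to -0.60, edgeR adjusted p 0.00709 to 0.0296).

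In shallow libraries Ezh2 ranged over 17.2 to 26.8 CPM in scKO (median 21.0) and 20.7 to 38.7 CPM in control (median 26.3). The groups overlapped, with 11 to 26 counts per scKO library and 10 to 34 per control library. edgeR gave a log2 fold change of -0.32 (SE 0.22, adjusted p = 0.824). Over 18 libraries it was -0.47 (SE 0.14, adjusted p = 0.121 in edgeR). That value crossed the threshold with DESeq2 (-0.54, adjusted p = 0.00123) and, in edgeR, without the 4 shallow libraries that stood apart (-0.52, adjusted p = 0.0215). The difference of its effect between classes was -0.33 (SE 0.27, adjusted p = 0.954 in edgeR). The annotated lincRNA Gm26625 overlaps 174 exon bases of Ezh2 on the opposite strand. Whether strand was used in counting is not stated, so reads of such pairs cannot be told apart.

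Ezh1, the other catalytic subunit, is known as the form that persists in resting and differentiated cells. It lies at chr11:101191115-101226463 on the minus strand. The 3 deep scKO libraries had 13.19, 19.95 and 19.11 CPM, and the 2 deep control libraries had 12.5 and 14.9 CPM. Of the 3 scKO libraries, 2 lay above both controls, and the groups overlapped. Tested in edgeR, the difference was a log2 fold change of 0.33 (SE 0.21, adjusted p = 0.316). In shallow libraries each held 4 to 13 counts of Ezh1, and the mean was 12.02 ± 4.15 CPM in scKO (SD, n = 6) and 10.9 ± 4.32 CPM in control (SD, n = 7).

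Within each library, Ezh2 was set against Ezh1 as a ratio of counts per kb. The ratio was 2.70, 1.66 and 2.05 in deep scKO libraries 6, 7 and 9, against 4.56 and 3.79 in deep control libraries. The scKO ratios all lay below the control ratios. In shallow libraries it ran from 1.2 to 5.29 in scKO (median 1.80) and from 1.21 to 5.41 in control (median 2.90), and the groups overlapped over nearly their whole range. The ratio was above 1 in all 18 libraries. It was formed after the 2 genes had been examined and is given as a description with no test.

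Eed binds the H3K27me3 mark and is needed for PRC2 activity. It lies at chr7:89954654-89980983 on the minus strand. Deep scKO libraries held 23.49, 32.03 and 28.57 CPM, and deep control libraries held 31.5 and 38.8 CPM. The groups overlapped, since scKO 7 lay above control 1. The log2 fold change was -0.33 (SE 0.16, adjusted p = 0.186 in edgeR). Shallow libraries held 2 to 9 counts each, and Eed was not tested there.

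Suz12, the scaffold subunit on which PRC2 assembles, lies at chr11:79993106-80034123 on the plus strand. In deep libraries the scKO values were 60.5, 72.6 and 83.6 CPM, and the control values were 61.3 and 93.2 CPM. The 2 controls differed more from each other than the group means did. As a log2 fold change, scKO over control, this gave -0.11 (SE 0.19, adjusted p = 0.758 in edgeR), and it ran from -0.37 to 0.23 as single deep libraries were left out. In shallow libraries Suz12 ranged over 33.2 to 70.6 CPM in scKO (median 40.5) and 39.1 to 63.1 CPM in control (median 58.3). There, scKO 8 was the highest library of both groups, and the other 5 scKO libraries (33.2 to 46.9 CPM) lay below 6 of the 7 controls. edgeR gave a log2 fold change of -0.27 (SE 0.19, adjusted p = 0.824). An opposite-strand lincRNA, Gm26563, overlaps Suz12, and E230029C05Rik, annotated as a processed transcript, overlaps Eed on the opposite strand.

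Bmi1, the PRC1 subunit that activates its ubiquitin ligase and is known for restraining the Cdkn2a locus, lies at chr2:18677018-18686629 on the plus strand. The 3 deep scKO libraries had 202.0, 194.2 and 176.2 CPM, and the 2 deep control libraries had 197.4 and 197.0 CPM. Both controls lay inside the scKO range. Tested in edgeR, the difference was a log2 fold change of -0.05 (SE 0.09, adjusted p = 0.781). In shallow libraries Bmi1 ranged over 41.0 to 80.5 CPM in scKO (median 65.7) and 28.7 to 91.2 CPM in control (median 63.1). Of the 4 libraries that stood apart, 3 held the lowest values, 41.0 CPM in scKO 1 and 28.7 and 38.4 CPM in control 7 and 8, and control 9 was at 63.1 CPM. The log2 fold change in shallow libraries was 0.07 (SE 0.23, adjusted p = 0.962 in edgeR), and -0.09 without those 4 libraries.

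**Figure D3:**
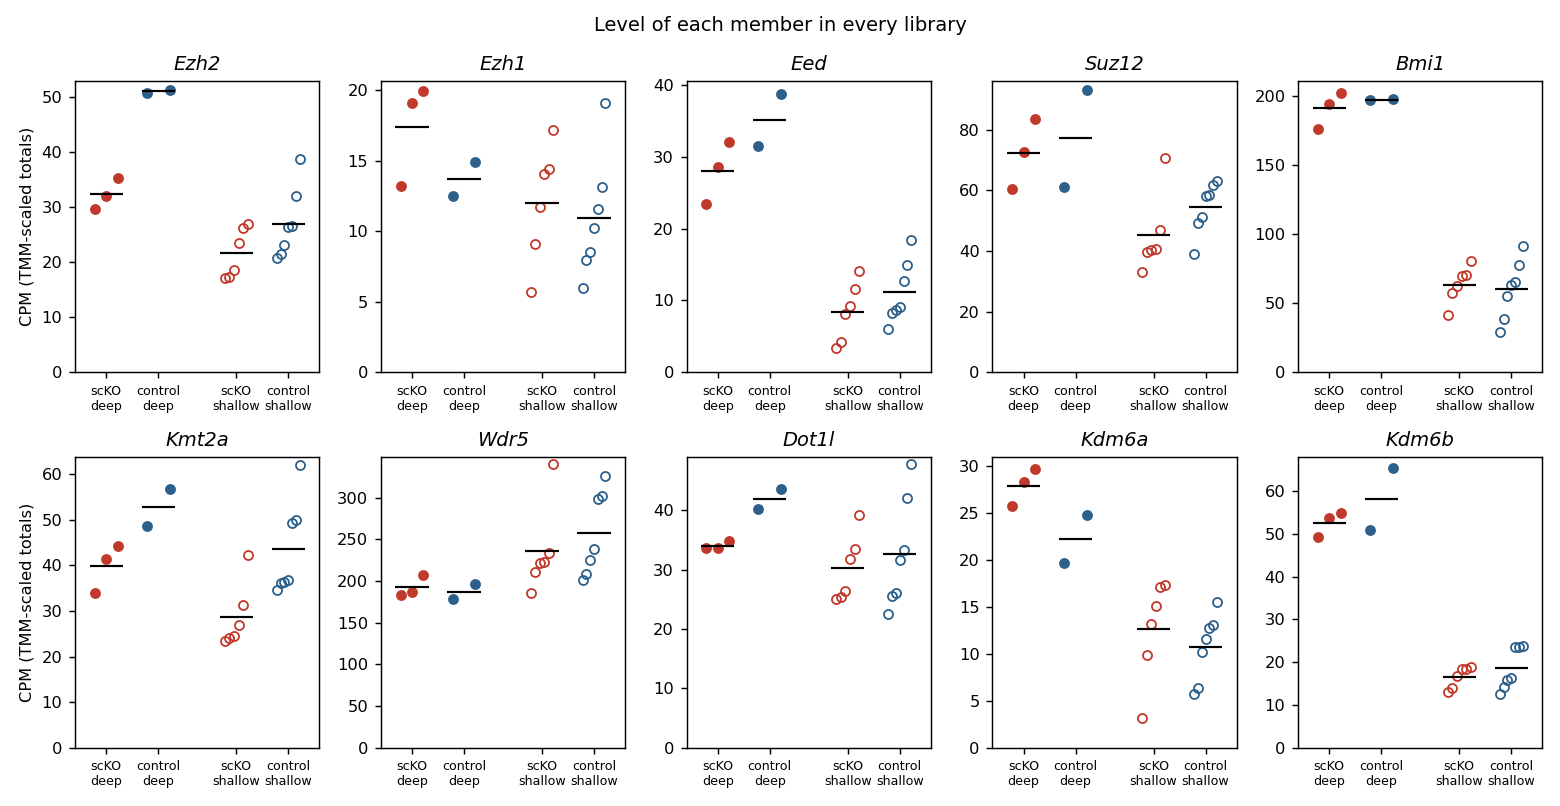
CPM of each member in every library, on scaled library totals, with deep libraries as filled and shallow libraries as open circles, scKO in red and control in blue, and the group mean as a bar. In deep libraries Ezh2, Kmt2a and Dot1l lie lower, and Kdm6a higher, in all 3 scKO libraries than in both control libraries. In shallow libraries the groups overlap in every panel.

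Kmt2a (MLL1) is the H3K4 methyltransferase known for maintaining Hox gene expression. It lies at chr9:44803355-44881296 on the minus strand. Deep scKO libraries held 34.0, 41.4 and 44.3 CPM, and deep control libraries held 56.7 and 48.7 CPM. The groups did not overlap. The log2 fold change was -0.40 (SE 0.14), with an edgeR adjusted p of 0.0743, and 0.0489 with no filter on low counts (-0.39). In shallow libraries Kmt2a ranged over 23.5 to 42.3 CPM in scKO (median 25.7) and 34.6 to 61.9 CPM in control (median 36.8). The 5 scKO libraries other than scKO 1 (23.5 to 31.2 CPM) lay below all 7 controls. The highest controls were 7, 8 and 9 (49.34, 61.89 and 49.95 CPM), and scKO 1, the highest scKO library, stood apart together with them.

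In the shallow class the log2 fold change of Kmt2a was -0.57 (SE 0.21, edgeR unadjusted p = 0.0126, adjusted p = 0.729). Over 18 libraries it was -0.48 (SE 0.14, adjusted p = 0.121 in edgeR). Leaving out scKO 1 alone moved that adjusted p to 0.0297 (-0.55), the 1 such step among 18 that gave a call. Leaving out all 4 libraries that stood apart gave -0.43 (edgeR adjusted p = 0.0299), and DESeq2 on 18 libraries gave -0.46 (adjusted p = 0.0119). The difference of its effect between classes was 0.17 (SE 0.29, adjusted p = 0.969 in edgeR). An antisense gene, AC061963.1, overlaps 378 exon bases of Kmt2a.

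Wdr5, the WD40 subunit shared by all MLL and SET1 complexes, lies at chr2:27515157-27536535 on the plus strand. In deep libraries the scKO values were 207.1, 183.1 and 187.0 CPM, and the control values were 178.1 and 195.8 CPM. The groups overlapped. As a log2 fold change, scKO over control, this gave 0.04 (SE 0.09, adjusted p = 0.822 in edgeR). In shallow libraries Wdr5 ranged over 185.1 to 340.9 CPM in scKO (median 222.1) and 201.4 to 326.0 CPM in control (median 238.4). The 4 libraries that stood apart held the 4 highest values, 340.9 CPM in scKO 1 and 298.8 to 326.0 CPM in control 7, 8 and 9. edgeR gave a log2 fold change of -0.12 in shallow libraries (SE 0.17, adjusted p = 0.907), and 0 over 18 libraries without those 4. The annotation also holds a separate gene of like name, Wdr5b, and how reads shared between such copies were counted is not stated.

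Dot1l, the H3K79 methyltransferase that MLL fusion proteins recruit to Hoxa genes in leukaemia, lies at chr10:80755206-80795461 on the plus strand. The 3 deep scKO libraries had 33.6, 33.7 and 34.8 CPM, and the 2 deep control libraries had 40.1 and 43.5 CPM. The 3 scKO libraries lay close together and below both controls. Tested in edgeR, the difference was a log2 fold change of -0.30 (SE 0.13, adjusted p = 0.127). In shallow libraries it ranged over 25.0 to 39.3 CPM in scKO (median 29.1) and 22.5 to 47.8 CPM in control (median 31.6), which overlapped, and the log2 fold change was -0.11 (SE 0.21, adjusted p = 0.935 in edgeR).

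Kdm6a (Utx), a demethylase of the PRC2 mark on the X chromosome and a subunit of MLL3 and MLL4 complexes, lies at chrX:18162575-18279936 on the plus strand. Deep scKO libraries held 28.4, 25.8 and 29.7 CPM, and deep control libraries held 19.7 and 24.8 CPM. All scKO libraries lay above both controls. Groups lay apart with scKO higher for 23.0% of genes tested. The log2 fold change was 0.31 (SE 0.16, adjusted p = 0.201 in edgeR). Over 18 libraries it was 0.32 (SE 0.19, adjusted p = 0.544 in edgeR). Shallow libraries held 2 to 17 counts each, with a mean of 12.6 ± 5.41 CPM in scKO (SD, n = 6) and 10.8 ± 3.61 CPM in control (SD, n = 7).

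Kdm6b (Jmjd3), the signal-induced demethylase of the same mark, lies at chr11:69398508-69413675 on the minus strand. In deep libraries the scKO values were 49.3, 54.8 and 53.7 CPM, and the control values were 51.0 and 65.4 CPM. The groups overlapped. As a log2 fold change, scKO over control, this gave -0.15 (SE 0.13, adjusted p = 0.47 in edgeR). In shallow libraries it ranged over 13.1 to 18.8 CPM in scKO (median 17.6) and 12.5 to 23.9 CPM in control (median 16.4), with a log2 fold change of -0.12 (SE 0.23, adjusted p = 0.943 in edgeR). The antisense gene Kdm6bos overlaps it.

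By overlap alone, 3 members were lower (Ezh2, Kmt2a and Dot1l) and 1 was higher (Kdm6a) in all deep scKO libraries than in all deep controls, where 22.3% and 23.0% of genes tested lay apart in these directions. In shallow libraries 0 of the 7 members tested lay apart, against 0.101% of 6906 genes with scKO lower and 0.203% with scKO higher.

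Ezh2 was lower in the same deep scKO libraries in which genes of S phase were lower. The S phase list held 50 genes, and was chosen with results of these data known. It covered DNA replication, its licensing and nucleotide supply. It also held E2F factors (E2f1, E2f2, E2f7 and E2f8), E-type cyclins, and genes of chromatin assembly, DNA methylation and repair. In deep libraries 40 of its 50 genes fell and 0 rose, with a median log2 fold change of -0.70 and all 50 negative, where 7.03% of all genes were called lower and 50.2% were negative. Among them, Mcm5, a subunit of the replicative helicase, averaged 39.4 ± 2.91 CPM in deep scKO libraries (SD, n = 3) and 75.1 ± 3.31 CPM in deep control libraries (SD, n = 2), at -0.93 (SE 0.11, adjusted p = 0.000388 in edgeR). Over 18 libraries 4 of 37 tested fell and 0 rose, with a median of -0.46, where 0.352% of all genes fell. The number of the 37 called lower was 19 with DESeq2 (2.94% of all genes) and 6 with limma-voom (0.679%). It was 29 of 43 tested without the 4 libraries that stood apart, in edgeR, where 4.09% of all genes were called lower. In shallow libraries 0 of 31 were called by edgeR, DESeq2 or limma-voom, 7 had an unadjusted edgeR p under 0.05 and a negative fold change, and the median was -0.30.

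Library by library, the mean log2 level of the S phase list lay at -0.75, -0.64 and -0.59 from the control mean in deep scKO libraries 6, 7 and 9, where Ezh2 lay at -0.67, -0.77 and -0.53. In shallow scKO libraries the list lay at -0.62 to -0.15, below the control mean in 6 of 6, and Ezh2 lay at -0.55 to 0.02, below it in 5 of 6. The 2 shallow scKO libraries with the lowest list values, scKO 5 (-0.62) and scKO 8 (-0.45), held Ezh2 at -0.16 and 0.02. In shallow control libraries the list lay at -0.12 to 0.12 and Ezh2 at -0.32 to 0.50. The part of the S phase genes in the result for Ezh2 was not tested. Summed levels of 3 marker lists of other cells also lay apart between the groups in deep libraries. The summed level of 4 Schwann cell markers was 28.7 to 56.5 CPM in deep scKO libraries and 9.09 to 16.1 CPM in deep control libraries, with all 4 at counts above 0 in both groups. In shallow libraries that sum was 7.81 to 69.2 CPM in scKO and 23.5 to 128.8 CPM in control. The sum of 5 fibro-adipogenic markers was 84.8 to 102.0 CPM in deep scKO libraries and 67.4 to 78.4 CPM in deep control libraries, again with all 5 above 0. In shallow libraries that sum was 44.9 to 91.8 CPM in scKO and 62.0 to 127.4 CPM in control, and the groups overlapped. The sum of 4 smooth muscle markers was 192.1 to 214.0 CPM in deep scKO libraries and 235.8 to 238.0 CPM in deep control libraries, with all 4 above 0. Most of that sum was Rgs5 and Cspg4, while Myh11 went the other way, at 3.61 to 6.43 CPM in deep scKO libraries and 1.44 to 1.62 CPM in deep control libraries. In shallow libraries the smooth muscle sum overlapped, at 46.2 to 110.9 CPM in scKO and 34.8 to 106.7 CPM in control. Endothelial and leukocyte sums overlapped. Their part in the result was not tested.

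**Figure D4:**
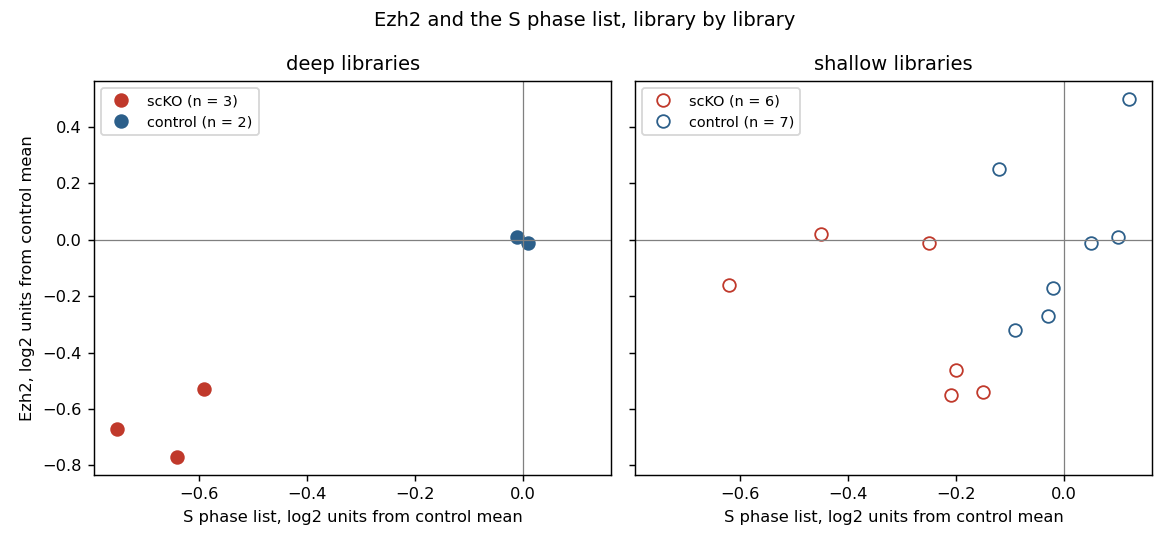
Level of Ezh2 against the mean level of the S phase list in each library, both in log2 units from the mean of the control libraries of the same depth class, for scKO (red) and control (blue). The 3 deep scKO libraries lie at the lower left, at -0.75 to -0.59 for the list and -0.77 to -0.53 for Ezh2. The shallow scKO libraries lie left of the shallow control libraries, with Ezh2 spread over -0.55 to 0.02.

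The partner genes of the members were counted in deep libraries, from lists chosen with earlier results of these data known. Of 10 PRC2 partners tested, 0 were called by edgeR, DESeq2 or limma-voom and 1 had an unadjusted edgeR p under 0.05. That gene was Jarid2, which recruits PRC2 to its sites, at 0.34 (SE 0.12, adjusted p = 0.0714 in edgeR). Of 23 PRC1 subunits, 5 fell and 1 rose, with a median log2 fold change of -0.12. Cbx2, which binds the H3K27me3 mark and compacts chromatin, averaged 15.6 ± 3.30 CPM in deep scKO libraries (SD, n = 3) and 28.1 ± 1.62 CPM in deep control libraries (SD, n = 2), at -0.86 (SE 0.18, adjusted p = 0.00674 in edgeR). Pcgf2, the closest relative of Bmi1, averaged 81.4 ± 0.976 CPM in scKO and 112.4 ± 6.57 CPM in control, at -0.46 (SE 0.10, adjusted p = 0.00625 in edgeR).

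Phc2, a PRC1 subunit with a domain that forms polymers, was at -0.46 (edgeR adjusted p = 0.00937). Kdm2b, which brings a form of PRC1 to unmethylated CpG islands, was at -0.73 (edgeR adjusted p = 0.00837), and missed the threshold without control 1 (-0.64, adjusted p = 0.0517). Cbx6 (-0.39, edgeR adjusted p = 0.0251) fell and Phc3 (0.42, edgeR adjusted p = 0.0386) rose; these 2 were named after their values were seen. The number of PRC1 subunits that fell was 3 without control 1, and 4 or 5 without any other 1 deep library. The number that rose was 0 without control 1, control 2 or scKO 9.

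Of 18 genes of KMT2 complexes, 2 fell and 0 rose, with a median of -0.15. These were Men1, which tethers Kmt2a to chromatin (-0.60, edgeR adjusted p = 0.0268), and Paxip1, of the MLL3 and MLL4 complexes (-0.45, edgeR adjusted p = 0.016). Neither passed without control 1 or without scKO 7 (edgeR adjusted p 0.0636 to 0.124), and Men1 did not pass in DESeq2 (adjusted p = 0.0797). Of 8 other H3K4 or H3K27 demethylases, 0 fell and 1 rose. Kdm7a, which acts on the marks H3K9me2 and H3K27me2, averaged 44.8 ± 2.37 CPM in deep scKO libraries (SD, n = 3) and 21.9 ± 3.05 CPM in deep control libraries (SD, n = 2), at 1.02 (SE 0.14, adjusted p = 0.000714 in edgeR). This held without any 1 deep library (0.89 to 1.18). An antisense gene, 4930599N23Rik, overlaps Kdm7a.

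Of 12 partners of Dot1l and of transcription elongation, 0 fell and 1 rose: Aff4, a scaffold of the super elongation complex, at 0.34 (edgeR adjusted p = 0.0352). It did not pass in DESeq2 (adjusted p = 0.077) or without control 1, scKO 6, scKO 7 or scKO 9 (edgeR adjusted p 0.0501 to 0.236). Of 13 other trithorax and Hox locus factors, 1 fell and 1 rose, both subunits of the SWI/SNF remodelling complex. Smarcb1 was at -0.35 (edgeR adjusted p = 0.0201) and did not pass without control 1 or scKO 7. Smarca2 was at 0.41 (edgeR adjusted p = 0.0146) and did not pass without control 2 or scKO 7. Of 7 genes of the H2A deubiquitinase, 0 were called by edgeR, DESeq2 or limma-voom and 2 had an unadjusted edgeR p under 0.05. The backgrounds for these counts are 7.03% of genes called lower and 7.31% called higher in deep libraries, and 29.4% with an unadjusted p under 0.05.

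Over 18 libraries, edgeR called 0 genes in each of these 7 partner lists, which held 75 tested genes. edgeR called 0.679% of all genes in that model. At an unadjusted edgeR p under 0.05 there were 11, against 11.9% of all genes. DESeq2 called 2 and limma-voom 0, against 5.09% and 1.32% of all genes. Cbx2 was then at -0.62 (SE 0.21, adjusted p = 0.204 in edgeR) and Kdm7a at 0.71 (SE 0.22, adjusted p = 0.14 in edgeR), on the same side of 0 as in deep libraries. Pcgf2 was at -0.20 (SE 0.15, adjusted p = 0.656 in edgeR) and Kdm2b at -0.11 (SE 0.20, adjusted p = 0.894 in edgeR). Phc2 was at 0.04 (SE 0.17, adjusted p = 0.969 in edgeR), on the other side of 0 from its value in deep libraries. In shallow libraries the means of Phc2 were 34.2 CPM in scKO and 25.4 CPM in control, and those of Kdm2b were 24.1 CPM in scKO and 17.7 CPM in control. Without the 4 libraries that stood apart edgeR called 4 of 76 partner genes tested, against 7.29% of all 8464 genes.

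**Figure D5:**
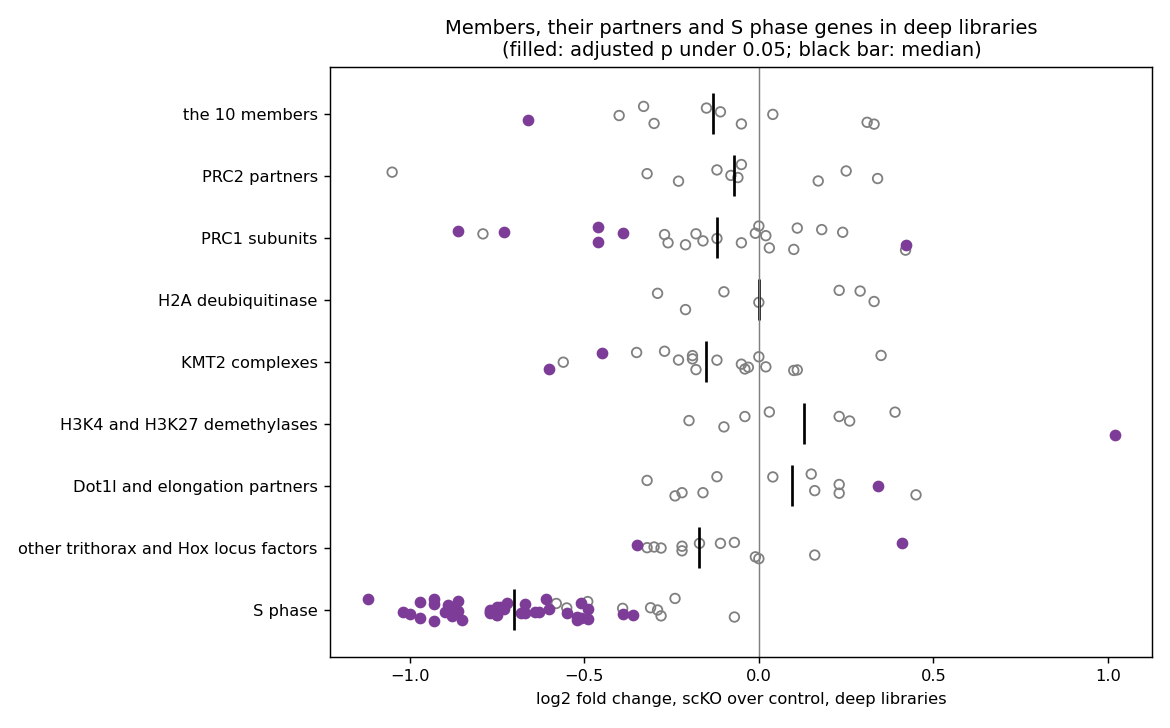
Log2 fold change, scKO over control, in deep libraries for each tested gene of the members, 7 lists of partner genes and the S phase list, with the list median as a black bar and genes with an edgeR adjusted p under 0.05 filled. The medians of the members (-0.13), PRC1 subunits (-0.12) and KMT2 complexes (-0.15) lie near 0, and that of the S phase list lies at -0.70.

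Likeness of pattern was measured for the 5 members with a mean of at least 20 counts in shallow libraries, as the correlation of log2 CPM after the mean of each group in each depth class was taken off, over 18 libraries. The libraries share depth and, in part, the split of scKO 1 and control 7, 8 and 9 from the rest, so the values are a description. Genes nearest to Kmt2a were Hnrnpab and Clk2 (Pearson r = 0.92 each), and without those 4 libraries r was 0.58 and 0.75. Genes nearest to Wdr5 were Mybbp1a and Rpl15-ps1 (0.95 each), with 0.62 and 0.73 without them. Bmi1 was nearest to Npepps (0.92, and 0.51 without them), and Dot1l to Rtn2 (0.81, and 0.86). Suz12 was nearest to Prkab2 (0.76, and 0.77 without them).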

How the data were processed

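The values are raw counts of unique molecular identifiers, as deposited by the authors, per gene, for 50689 features in 18 libraries, per the file headers. HISAT2 and HTSeq are named without version or setting in the submitters' processing notes, where the build is given as Rnor_6.0, of the rat, although all identifiers are mouse Ensembl genes; they were used as deposited. The library kit, strand use and annotation release are not given in the sources used here. Features with no gene name (313) held 0.041% of counts. The floor, 3 counts per library, is 0.501 to 0.69 CPM (counts scaled to a common library total) in deep libraries and 3.10 to 7.14 CPM in shallow ones, and covers counting error only. Totals ran from 420197 to 5986128 counts.

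Genes were filtered with filterByExpr, scaled by TMM and tested with edgeR 4.0.16 (quasi-likelihood, robust, Benjamini-Hochberg, threshold 0.05) in R 4.3.3, over all genes, in 4 models: 18 libraries with the depth class (over or under 2,000,000 counts) as covariate, each class alone, and group by class. SEs are the fold change divided by the root of the F statistic. CPM values are on TMM-scaled totals within a class, and log2 CPM used a prior count of 2. Steps were tested on simulated data with changes put into known genes. In the deep model edgeR called 72 of 97 genes changed 2-fold, 46 of 99 changed 1.5-fold and 26 unchanged genes. In the shallow model these were 63 of 95, 8 of 96 and 5. With 18 libraries and the depth class they were 88 of 91, 51 of 97 and 11. The alternatives were DESeq2 1.42.0, limma 3.58.1 (voom), other scalings and filters, a replicate block, and counts corrected for collisions of identifiers. For the last, a length of 6 bases was assumed. Further alternatives left out single libraries or the 4 libraries that stood apart. No pair of libraries held identical counts.

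Members and lists were chosen with earlier results of these data known. Genes named were the members, Hoxa10 and Hoxa9, up to 4 tested genes of each list with the smallest p in the model described, and up to 5 genes nearest in pattern to each member with at least 20 counts on average in shallow libraries, of which the first 1 or 2 are printed. Exceptions, named after their values were seen, were Cbx6, Phc3, the markers Rgs5, Cspg4 and Myh11, and the zero-count genes Pax2, Sox1, Olig2 and Nkx2-1.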

Additional observations from a re-analysis of the deposited data

How the results depend on the processing

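The call of Ezh2 in deep libraries held under all 11 alternatives run (log2 fold change -0.72 to -0.60, adjusted p 0.000157 to 0.0296). The number of all genes called with the depth class as covariate was 359 with no filter on low counts, 22 with the stricter filter, 390 with DESeq2, 101 with limma-voom, 1 with the group alone, 14 with the replicate block and 617 without the 4 libraries that stood apart, and 11 to 216 as single libraries were left out. Members called in that model numbered 2 of 8 tested with DESeq2, where 5.09% of all genes were called. They numbered 2 of 10 tested without the 4 libraries, where 7.29% of all genes were called, and 0 to 1 as single libraries were left out. In shallow libraries, where 3 genes were called in edgeR, 13 were called with no filter, 6 with DESeq2, 0 without the 4 libraries and 1 to 5 as single libraries were left out. In deep libraries 996 to 1810 were called as single libraries were left out, the lowest without scKO 7. With no filter on low counts, 2 members were called in deep libraries. The share of all genes called in that setting is not given here, so this count cannot be set against its background. With the default filter the background was 14.3% of 13136 genes.

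Members near 0 changed sign, none of them called. Kdm6b was at 0.01 over 18 libraries with the group alone, and 0.02 in shallow libraries with the replicate block, where Dot1l was at 0.11. Without the 4 libraries, Bmi1 was at -0.06 and Wdr5 at 0 over 18 libraries, and Bmi1 at -0.09, Kdm6b at 0.11 and Dot1l at 0 in shallow libraries. As single libraries were left out, Bmi1 ran from -0.04 to 0.11 over 18 libraries, -0.09 to 0.01 in deep and -0.05 to 0.20 in shallow libraries. Dot1l ran from -0.20 to 0.01 in shallow libraries, and in deep libraries Suz12 ran from -0.37 to 0.23, Kdm6b from -0.32 to 0.04 and Wdr5 from -0.03 to 0.11. The difference between classes ran from -0.24 to 0 for Bmi1, -0.14 to 0.22 for Kdm6a, -0.19 to 0.16 for Kdm6b and -0.09 to 0.51 for Suz12. The cause was not tested. The labels do not say whether replicate numbers pair the libraries. Residuals correlated above 0.1 in 4 of 9 same-numbered pairs (range -0.07 to 0.25), and 3 libraries matched their own number best. Some same-numbered pairs lie in different depth classes, so these values cannot decide whether libraries were paired. Under the replicate block no member was called. Median-of-ratios scaling moved the median of all genes by 0.01 at most. Shallow libraries held 2 to 17 counts of Eed, Ezh1 and Kdm6a each, which limits what could be detected there. In simulated data the shallow model called 8 of 96 genes changed 1.5-fold, so such a change in a tested member could be missed too.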

Other observations

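Most of the listed genes that Polycomb is known to silence had few counts. Of 25 such developmental genes, 18 never exceeded 5 counts in any library, and 9 of these, among them Pax2, Sox1, Olig2 and Nkx2-1, had 0 counts in all 18. Of all 50689 features, 24176 had a count in at least 1 library and the rest had none. Few counts are therefore not particular to this list. In deep libraries 5 of the 25 passed the filter, 0 fell and 1 rose. Tbx4, a hindlimb transcription factor, was at a log2 fold change of 0.66 (SE 0.16, adjusted p = 0.016 in edgeR), and missed the threshold without control 1 (0.45, adjusted p = 0.116). Over 18 libraries Tbx4 was at 0.18 (SE 0.18, adjusted p = 0.769 in edgeR), and in shallow libraries, at a mean of 19.1 CPM in scKO and 23.5 CPM in control, it was at -0.29 (SE 0.23, adjusted p = 0.837 in edgeR). Cdkn2a, the locus Bmi1 is known to restrain, was at -0.23 (SE 0.12, adjusted p = 0.236 in edgeR). Cdkn1c, an inhibitor of cell cycle kinases, was at 1.33 (SE 0.61, adjusted p = 0.279 in edgeR), and passed without scKO 6 (0.77, adjusted p = 0.00575).

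Of 39 Hox genes, 17 were tested in deep libraries, 2 fell (Hoxa10 and Hoxc8) and 1 rose (Hoxa9), against 7.03% of all genes called lower and 7.31% called higher. Hoxa10 is the gene targeted in scKO, so its fall was set by the design, and Hoxc8 was the only other Hox gene that fell. Hoxa9, the neighbour of Hoxa10, averaged 55.4 ± 9.06 CPM in deep scKO libraries (SD, n = 3) and 35.9 ± 0.531 CPM in deep control libraries (SD, n = 2), at 0.63 (SE 0.15, adjusted p = 0.0128 in edgeR). It missed the threshold without control 2 (0.61, adjusted p = 0.0514) and without scKO 7 (0.52, adjusted p = 0.0708). Over 18 libraries Hoxa9 was called, at 0.84 (SE 0.19, adjusted p = 0.0434 in edgeR). That call was lost in 13 of the 18 fits that each left out 1 library. Its shallow means were 15.2 CPM in scKO and 6.07 CPM in control. In deep libraries Hoxc8 was at -0.80 (SE 0.24, adjusted p = 0.0434 in edgeR) and passed in only 1 of the 5 fits that each left out 1 deep library.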
